A study of Homo sapiens with 4 samples.

Results

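Glycolysis splits glucose into pyruvate in the cytosol, and the 30 genes described here cover that route from glucose uptake to the export of lactate. They were chosen by symbol, from a list of transporters, enzymes and regulators grouped by enzymatic step, and all 30 stood in the deposited table of 26255 genes. The choice was made with earlier results of these data known. The RNA came from HCT116, a human cell line established from a colorectal carcinoma, and was sequenced in 2 groups of 2 libraries. The EV control group, libraries 1 and 2, is labelled as cells that received an empty vector, and its columns carry the name AAVS1, a locus commonly edited for neutral controls. The KO group, libraries 1 and 2, came from cells with a knockout of C14orf159, a gene now named DGLUCY that encodes a mitochondrial matrix protein, and its columns carry the name sgDGLUCY. The labels give no other treatment, do not say whether the KO libraries came from 1 clone or from a pool, and do not say that replicates were separate cultures, so p-values measure only how far these libraries scatter, and part of that scatter may be technical. The design text of the series asks why C14orf159 lowers migration, invasion and spheroid growth of colorectal cancer cells.

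In the pathway, glucose enters through facilitative transporters and is trapped by hexokinase, and phosphofructokinase, tuned by the metabolite fructose 2,6-bisphosphate, commits it to breakdown. Lactate dehydrogenase turns pyruvate into lactate, whereas pyruvate dehydrogenase kinases limit the use of pyruvate in the mitochondria by switching off pyruvate dehydrogenase. Most steps are served by several isozyme genes, and many tumour cells, colorectal ones included, make lactate even where oxygen is present. Many of these genes are known targets of hypoxia-inducible factors, which bind DNA at short sites with an ACGTG or GCGTG core.

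The upstream sequences of 5 members with the smallest unadjusted p-values among those with a single RefSeq start are shown, since these 5 genes stood above both controls in both KO libraries. Each run holds the 250 bases before the start in RefSeq (assembly GRCh38.p14), 5′ to 3′ on the strand of the gene, with every ACGTG or GCGTG of either strand in capitals. The windows are chr1:42958869-42959118 (minus strand) for SLC2A1, chr3:48556804-48557053 (minus) for PFKFB4, chr17:28576896-28577145 (minus) for ALDOC, chr12:6914330-6914579 (plus) for ENO2 and chrX:24465036-24465285 (plus) for PDK3.
SLC2A1: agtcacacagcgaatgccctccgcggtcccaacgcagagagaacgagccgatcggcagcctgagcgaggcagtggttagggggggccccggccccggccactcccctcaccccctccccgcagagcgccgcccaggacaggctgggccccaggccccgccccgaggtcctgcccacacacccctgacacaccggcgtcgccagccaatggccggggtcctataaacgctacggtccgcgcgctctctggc
PFKFB4: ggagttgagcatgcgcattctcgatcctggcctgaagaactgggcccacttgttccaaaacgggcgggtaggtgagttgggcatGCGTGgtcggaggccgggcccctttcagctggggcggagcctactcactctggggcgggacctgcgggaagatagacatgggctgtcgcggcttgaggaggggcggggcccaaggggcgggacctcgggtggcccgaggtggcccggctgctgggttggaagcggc
ALDOC: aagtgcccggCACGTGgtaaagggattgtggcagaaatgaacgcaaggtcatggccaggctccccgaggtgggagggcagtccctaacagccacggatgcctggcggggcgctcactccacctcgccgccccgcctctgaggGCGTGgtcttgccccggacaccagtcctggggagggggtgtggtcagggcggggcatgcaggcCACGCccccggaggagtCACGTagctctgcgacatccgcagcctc
ENO2: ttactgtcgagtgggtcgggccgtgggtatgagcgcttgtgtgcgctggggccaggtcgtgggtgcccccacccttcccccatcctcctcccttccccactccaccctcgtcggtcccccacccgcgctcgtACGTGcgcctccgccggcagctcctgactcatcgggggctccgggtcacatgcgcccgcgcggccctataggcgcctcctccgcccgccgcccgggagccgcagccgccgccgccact
PDK3: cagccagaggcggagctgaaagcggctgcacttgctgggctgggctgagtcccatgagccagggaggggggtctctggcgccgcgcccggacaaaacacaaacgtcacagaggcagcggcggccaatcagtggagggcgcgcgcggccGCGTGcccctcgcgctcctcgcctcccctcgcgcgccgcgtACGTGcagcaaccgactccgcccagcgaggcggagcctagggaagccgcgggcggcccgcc

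The motif count was 0 in the SLC2A1 window, 1 each for PFKFB4 and ENO2, 2 for PDK3 and 5 for ALDOC, where 2 of the 5 are the overlapping strands of a single palindrome. RefSeq windows were found for 27 of the 30 members, many with several starts, and 30 of their 56 windows (53.6%) held the motif. Of all 35116 windows of the same length, 43.2% did. A match is a description of the letters and shows no binding, and the deposited values rest on another build (hg19), so these coordinates belong to RefSeq alone.

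The libraries were examined first. The deposited values are FPKM (fragments per kilobase of transcript and per mega fragment), which are scaled for gene length and can be set side by side between genes. They hold no counts, and a rough estimate from the value of 1 fragment gave 12.5 to 13.4 M (mega) fragments per library. C14orf159 stood at 16.2 and 16.4 FPKM in the controls, at 2.52 in KO 1 and at 10.8 in KO 2, which is 15.5% and 66.2% of the control mean. Its difference of -1.42 (SE 0.57) on the log2(FPKM + 1) scale did not pass the test (limma, adjusted p = 0.314). The median difference between the KO libraries was 0.170 on that scale over the 12701 tested genes, against 0.0732 between the controls, so the KO libraries stood further from each other than the controls did. For the glycolysis genes these medians were 0.245 and 0.0359. Of 9 markers of a colorectal epithelial line, 7 reached 1 FPKM in some library (summed 3476 to 3659 FPKM in control and 3521 to 3857 in KO), CDX1 was listed at 0 throughout and VIL1 was at or below 0.053. The sum is mostly keratins. CLDN4 had 115 and 105 FPKM in control, then 171 and 142 in KO, and EPCAM 237 and 236, then 284 and 314. CDH1 had 22.8 and 22.9, then 29.5 and 24.8. These lay above both controls in both KO libraries, as did 26.5% of all tested genes. The groups overlapped for KRT8 (1511 and 1464, then 1291 and 1540) and KRT18 (805 and 748, then 734 and 896). They also overlapped for KRT19 (958 and 892, then 1004 and 930) and CDX2 (9.69 and 8.79, then 8.01 and 10.2). The part of the epithelial markers in the results below was not tested. Fibroblast, endothelial and liver markers were all under 1 FPKM, as were those of blood and muscle other than CD68 and DES. Neuronal markers summed to 69.2 to 72.1 FPKM in control and 71.5 to 80.0 in KO, nearly all of it TUBB3, whose groups overlapped. SYP had 1.05 and 0.930 FPKM in control, then 1.18 and 1.24 in KO, above both controls. RBFOX3 and SNAP25, both under 1 FPKM, lay below both controls. Their part in the ENO2 and ALDOC values below was not tested.

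A gene was tested where it reached 1 FPKM in at least 2 libraries, which 29 of the 30 genes did, all but the glucose transporter gene SLC2A3. Differences are KO minus EV control of log2(FPKM + 1), a scale on which low genes appear to change less than they do, and adjusted p-values are Benjamini-Hochberg values over all tested genes. No glycolysis gene passed an adjusted p of 0.05 in limma, against 0.0551% of all tested genes in each direction. At an unadjusted p under 0.05 there were 6 higher genes and 0 lower ones, and the background was 9.23% higher and 7.22% lower. These 6, a share of 20.7%, were SLC2A1, HK1, PFKFB4, ALDOC, ENO2 and PDK3. Both KO libraries lay above both controls for 13 of the 29 genes (44.8%, background 26.5%) and below them for 3 (background 25.6%). The median difference was 0.07 over the members and 0.0031 over all tested genes. Since the members were chosen with earlier results of these data known, the comparisons with the background are description only. In a bulk library a larger share of cells with a transcript and more of it per cell cannot be told apart.

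**Figure D1:**
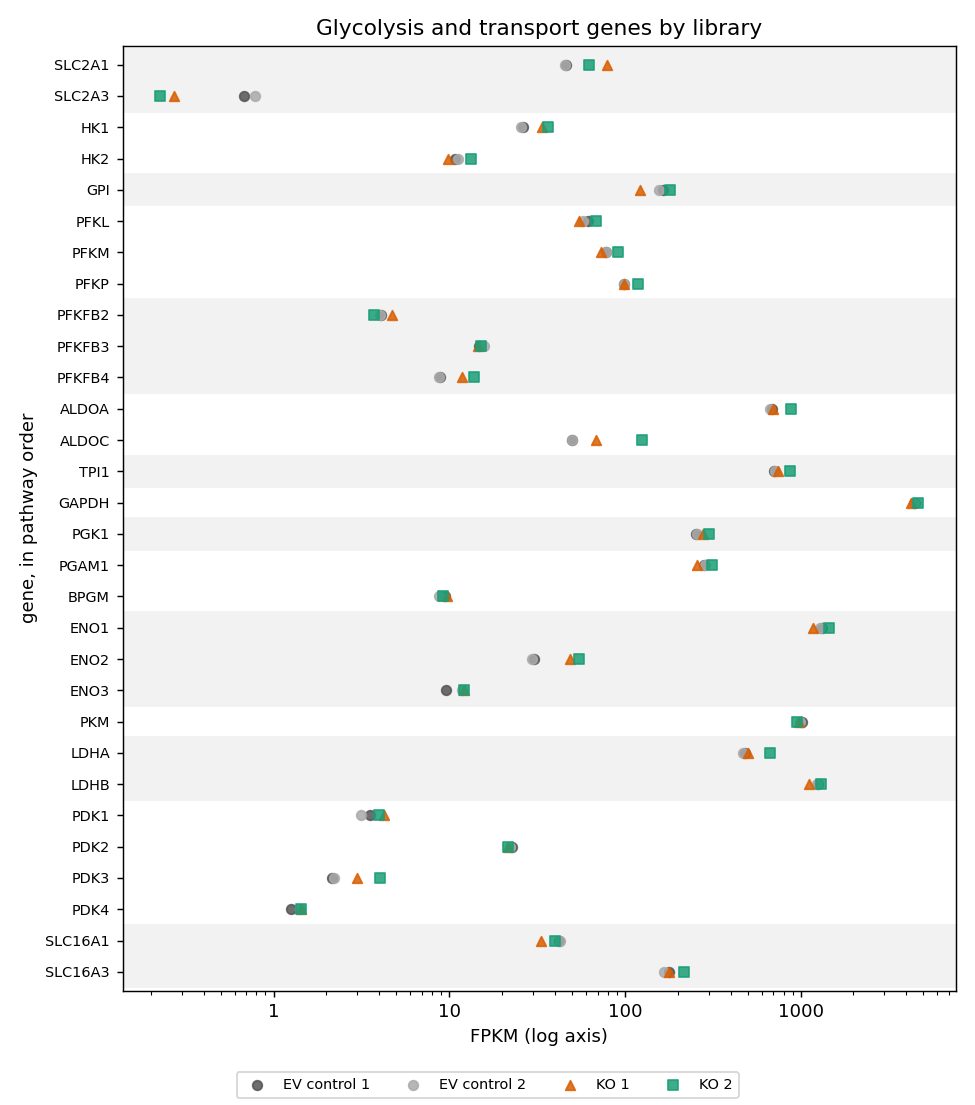
FPKM of each of the 30 genes in each library, on a log axis, in pathway order with steps shaded in turn. Circles are the EV control libraries, triangles KO 1 and squares KO 2. The control means span from 0.734 FPKM for SLC2A3 to 4437 FPKM for GAPDH.

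The most abundant sugar transporter transcript examined was SLC2A1, which encodes the widespread transporter GLUT1. SLC2A1 stood at 46.1 and 45.6 FPKM in the controls, at 79.1 in KO 1 and at 62.4 in KO 2. Both KO libraries were higher than both controls, KO 1 the more so (45.9 ± 0.380 and 70.7 ± 11.8 FPKM, SD, n = 2 each). The difference was 0.60 (SE 0.13), with an adjusted p of 0.197 in limma. SLC2A3, the gene of the high-affinity transporter GLUT3, was near the floor and went the other way, with 0.680 and 0.788 FPKM in the controls and 0.273 and 0.227 in the KO libraries. Both KO values were below both controls, at 37.2% and 30.9% of their mean. They rest on few fragments, roughly 35 and 41 in the controls and 13 and 11 in the KO libraries. Without the filter on low values its difference was -0.47 (limma, adjusted p = 0.192). SLC2A1 made up 98.5% and 98.3% of the summed FPKM of the pair in the controls and 99.7% and 99.6% in the KO libraries. Over 9 listed SLC2A genes its share was 66.4% in each control, 77.7% in KO 1 and 70.8% in KO 2, with SLC2A6 next at 13.02 and 12.3 FPKM in the controls and 9.28 and 12.1 in the KO libraries.

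Hexokinase phosphorylates glucose, and of its genes HK1, the broadly expressed form, stood above HK2, the form often raised in tumours. HK1 had 26.3 and 25.6 FPKM in the controls and 33.7 and 36.4 in the KO libraries. All KO values lay above the controls, with little spread inside either group (26.0 ± 0.475 and 35.1 ± 1.90 FPKM, difference 0.42, SE 0.08, adjusted p = 0.183 in limma). HK2 had 10.8 and 11.3 FPKM in the controls, 9.80 in KO 1 and 13.4 in KO 2, below and above the controls in turn. HK1 thus held 70.9% and 69.4% of the hexokinase pair in the controls and 77.5% and 73.2% in the KO libraries. Such a share is taken inside each library, so scaling a whole library up or down cannot move it. With 2 libraries against 2, an exact permutation test (two-sided) cannot go below p = 0.333 for any share, which is what the HK1 share gave.

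GPI, which turns glucose 6-phosphate into fructose 6-phosphate, differed on the log2 scale between the KO libraries more than any other member that averaged 100 FPKM or more. It stood at 164 and 157 FPKM in the controls, at 122 in KO 1 and at 180 in KO 2. One KO library was thus below and the other above both controls, and the group difference was -0.11 (SE 0.19, adjusted p = 0.788 in limma).

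The phosphofructokinase genes encode the liver (PFKL), muscle (PFKM) and platelet (PFKP) subunits of the enzyme that commits sugar to glycolysis. PFKP was the most abundant, at 99.3 and 98.7 FPKM in the controls, 98.8 in KO 1 and 119 in KO 2. PFKM had 78.1 and 77.7 FPKM in the controls, then 73.4 in KO 1 and 90.8 in KO 2. PFKL had 61.3 and 57.9, then 55.0 and 68.6. In KO 2 all 3 subunit genes were above the controls, and in KO 1 PFKM and PFKL were below them. The mix of subunits was much alike in all libraries, PFKP holding 41.6% and 42.1% of the sum in the controls and 43.5% and 42.7% in the KO libraries. Group differences were 0.13 (PFKP), 0.07 (PFKM) and 0.04 (PFKL), none of which passed.

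The PFKFB genes encode bifunctional enzymes that make and remove fructose 2,6-bisphosphate, the strongest activator of phosphofructokinase. PFKFB4 had 8.88 and 8.73 FPKM in the controls and 11.8 and 13.9 in the KO libraries. Both KO values lay above both controls (8.80 ± 0.108 and 12.8 ± 1.45 FPKM, difference 0.49, SE 0.10, adjusted p = 0.194 in limma). PFKFB3, known for its strong kinase activity, had 14.8 and 15.7 FPKM in the controls and 14.6 and 15.3 in the KO libraries, where the groups overlapped. PFKFB2 had 4.08 and 4.01 FPKM in the controls, 4.75 in KO 1 and 3.76 in KO 2, on opposite sides. The PFKFB4 share of the 3 genes was 31.9% and 30.7% in the controls and 37.9% and 42.2% in the KO libraries, while the PFKFB3 share was 53.4% and 55.2%, then 46.9% and 46.4%.

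**Figure D2:**
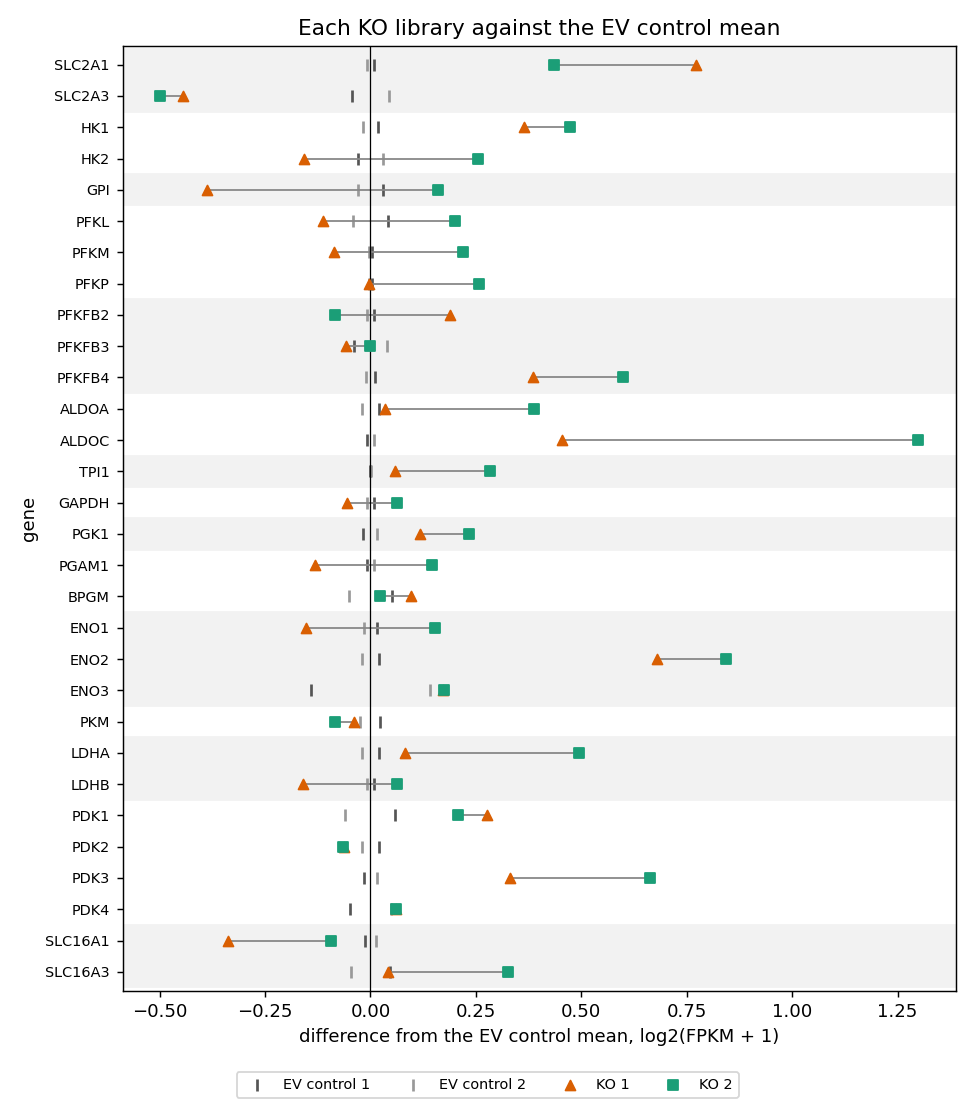
Difference of each KO library from the mean of the EV controls on the log2(FPKM + 1) scale, for the 30 genes in pathway order. Triangles are KO 1, squares KO 2, and short bars the controls around their own mean. ALDOC reaches 1.30 in KO 2 and 0.45 in KO 1, and ENO2 0.84 and 0.68, whereas GPI, HK2 and ENO1 have the KO libraries on either side of 0.

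Aldolase splits the 6-carbon sugar, and ALDOA is its main form while ALDOC is best known from brain. ALDOC had 49.7 and 50.3 FPKM in the controls, 68.9 in KO 1 and 124 in KO 2. Both KO libraries were above both controls, but KO 2 far more than KO 1, which left a wide error (50.0 ± 0.417 and 96.6 ± 39.2 FPKM, difference 0.88, SE 0.28, adjusted p = 0.264 in limma). ALDOA had 687 and 669 FPKM in the controls, 694 in KO 1 and 888 in KO 2. KO 1 lay just above the controls and KO 2 clearly above (difference 0.21, SE 0.15, adjusted p = 0.527). ALDOC accounted for 6.74% and 6.99% of aldolase FPKM in the controls, 9.03% in KO 1 and 12.3% in KO 2.

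The single-gene steps of the lower pathway are served by abundant transcripts. TPI1, which interconverts the triose phosphates, had 711 and 713 FPKM in the controls, 741 in KO 1 and 866 in KO 2 (difference 0.17, SE 0.12, adjusted p = 0.528 in limma). GAPDH, the dehydrogenase that makes NADH here and a common reference gene, had 4464 and 4411 FPKM in the controls, 4269 in KO 1 and 4638 in KO 2. Its KO libraries lay on either side of the controls, and GAPDH made up 37.2% to 39.5% of the summed FPKM of all 30 genes. PGK1, the first ATP-forming enzyme of the route, had 253 and 258 FPKM in the controls and 277 and 301 in the KO libraries, above both controls (difference 0.18, SE 0.09, adjusted p = 0.405). PGAM1, the mutase that follows, had 282 and 285, then 259 and 314 FPKM. BPGM, which makes and removes 2,3-bisphosphoglycerate, ranged from 8.73 to 9.78 FPKM over the libraries, and its groups overlapped. Reads of several of these genes may be shared with pseudogenes, which was not tested. GENCODE release 29 names 62 for GAPDH, 13 for PGAM1, 6 for LDHA, 5 for PKM, and 4 each for TPI1 and ENO1. Of the 105 pseudogenes named after members, only TPI1P2, TPI1P3 and PGAM1P5 have deposited values, which were 0.683 FPKM or less. The others, among them all those of GAPDH, LDHA, PKM and ENO1, have no value.

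ENO2, the enolase gene best known from neurons and also a target of hypoxia-inducible factors, had the smallest p-value of all glycolysis genes. It stood at 30.6 and 29.7 FPKM in the controls, at 48.9 in KO 1 and at 54.8 in KO 2. The groups were well apart (30.1 ± 0.633 and 51.9 ± 4.19 FPKM), and the KO libraries reached 162% and 182% of the control mean. The difference was 0.76 (SE 0.09), with an adjusted p of 0.121 in limma. ENO1, the ubiquitous and far more abundant form, had 1316 and 1287 FPKM in the controls, 1170 in KO 1 and 1448 in KO 2, on opposite sides of the controls. ENO3, the muscle form, had 9.60 and 11.9 FPKM in the controls and 12.2 and 12.2 in the KO libraries, where EV control 2 lay close to both. ENO2 held 2.26% and 2.23% of enolase FPKM in the controls and 3.97% and 3.62% in the KO libraries, and ENO1 made up 95.04% to 97.04% over the libraries.

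PKM, the pyruvate kinase gene, had 1026 and 992 FPKM in the controls and 981 and 952 in the KO libraries. Both KO values lay slightly below both controls, and the difference of -0.06 (SE 0.11, adjusted p = 0.798 in limma) was within the error. The gene-level value does not separate the M1 and M2 splice forms. LDHA and LDHB encode the muscle-type and heart-type subunits of lactate dehydrogenase, of which the former is known to favour lactate formation. LDHA had 481 and 468 FPKM in the controls, 502 in KO 1 and 669 in KO 2, all KO values being above the controls (474 ± 9.06 and 586 ± 118 FPKM, difference 0.29, SE 0.16, adjusted p = 0.434). LDHB, the more abundant form here, had 1261 and 1247 FPKM in the controls, 1122 in KO 1 and 1311 in KO 2. The LDHA share of the pair was 27.6% and 27.3% in the controls, 30.9% in KO 1 and 33.8% in KO 2, so the share lay higher in KO 1 as well, where LDHA itself was near the control level and LDHB was lower.

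**Figure D3:**
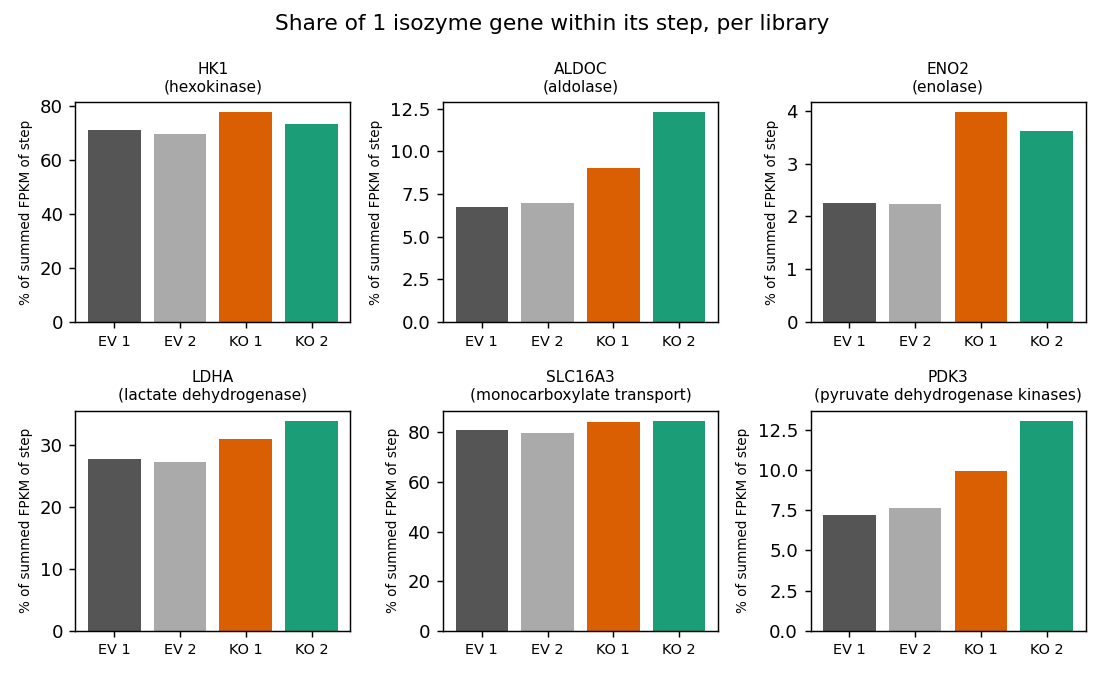
Share of 1 isozyme gene in the summed FPKM of its step, in percent, for each library, with axes that start at 0. HK1, ALDOC, ENO2, LDHA, SLC16A3 and PDK3 have larger shares in both KO libraries than in both EV controls. They span from 2.26% or less against 3.62% or more for ENO2 to 80.9% or less against 84.2% or more for SLC16A3. Only genes with a larger share are drawn. Of 25 shares in 10 steps, 10 lay higher in both KO libraries, 10 lay lower and 5 overlapped. Shares in other groups of genes were not computed, so these counts have no background of their own. For FPKM itself, 26.5% of all tested genes lay higher in both KO libraries and 25.6% lower. In a step of 2 genes the shares mirror each other, so they are not separate observations. Within a step, a larger share of 1 gene means a smaller share elsewhere.

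Pyruvate dehydrogenase kinases limit the use of pyruvate in the mitochondria, and PDK2 was the main form. PDK2 had 22.9 and 22.2 FPKM in the controls and 21.5 and 21.5 in the KO libraries, slightly below the controls (difference -0.06, SE 0.07). PDK3 had 2.15 and 2.22 FPKM in the controls, 2.998 in KO 1 and 4.04 in KO 2. It was above both controls in both KO libraries at a low level (2.18 ± 0.0505 and 3.52 ± 0.736 FPKM, difference 0.50, SE 0.15, adjusted p = 0.246 in limma), from roughly 54 to 100 fragments per library. PDK1, the form best known as induced by hypoxia, had 3.52 and 3.16 FPKM in the controls and 4.26 and 4.01 in the KO libraries (difference 0.24, SE 0.11, adjusted p = 0.345). PDK4, known from fasting muscle and liver, had 1.26 and 1.41 FPKM in the controls and 1.44 in each KO library, a gap smaller than that between the controls. PDK2 therefore held 76.8% and 76.5% of the kinase FPKM in the controls and 71.2% and 69.4% in the KO libraries.

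Lactate leaves the cell through monocarboxylate transporters, MCT1 from SLC16A1 and MCT4 from SLC16A3, the latter typical of cells that export much lactate. SLC16A1 had 42.1 and 42.9 FPKM in the controls, 33.4 in KO 1 and 39.8 in KO 2. Both KO values lay below both controls (42.5 ± 0.530 and 36.6 ± 4.50 FPKM, difference -0.22, SE 0.11, adjusted p = 0.385 in limma). SLC16A3 had 178 and 167 FPKM in the controls, 178 in KO 1 and 217 in KO 2, KO 1 lying between the controls (difference 0.18, SE 0.12, adjusted p = 0.503). The SLC16A3 share of the pair was 80.9% and 79.6% in the controls and 84.2% and 84.5% in the KO libraries, nearly equal in the latter although their levels differed. BSG, the gene of basigin, the chaperone that brings both transporters to the cell surface, had 355 and 349, then 370 and 369 FPKM (difference 0.07, SE 0.09).

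Each KO library was then set alone against the controls. These fits share the EV controls and assume that a lone KO library varies like them, so they describe single libraries. In KO 1 alone, 5 glycolysis genes were higher and 2 lower at an adjusted p under 0.05 in limma, where the background was 6.29% higher and 6.94% lower. SLC2A1 (0.77), ENO2 (0.68), ALDOC (0.45), PFKFB4 (0.39) and HK1 (0.37) were the higher ones, and GPI (-0.39) and SLC16A1 (-0.34) the lower ones. In KO 2 alone, 12 were higher and 0 lower, where the background was 10.9% and 6.62%. ALDOC (1.30), ENO2 (0.84), PDK3 (0.66), PFKFB4 (0.60), LDHA (0.50), HK1 (0.47), SLC2A1 (0.44), ALDOA (0.39), SLC16A3 (0.33), TPI1 (0.28), PFKP (0.26) and PGK1 (0.23) were those 12. Abundant genes were higher in KO 2 in general. Over the 897 tested genes that averaged 100 FPKM or more the median was -0.06 in KO 1 and 0.13 in KO 2, and over the 12 glycolysis genes in that range it was -0.02 and 0.20. Over the 17 tested glycolysis genes under 100 FPKM the medians were 0.17 and 0.21, against 0.0014 and 0.0046 for all tested genes in that range. Among the tested glycolysis genes, 8 lay below both controls in KO 1 and above both in KO 2 (HK2, GPI, PFKL, PFKM, GAPDH, PGAM1, ENO1 and LDHB), and PFKFB2 did the reverse (background 10%). The first pattern held for 27.6% of these genes, for 12.8% of all tested genes and for 32.6% of the 897 abundant ones. Among abundant genes it was thus common, but the 27.6% also counts HK2, PFKL and PFKM, which averaged under 100 FPKM.

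Further genes of the pathway were examined as a list of 56 symbols, of which 38 were tested. No gene of that list passed over all tested genes in limma, and at an unadjusted p under 0.05 there were 3 higher genes and 3 lower ones. Each is 7.89% of the list, near the background of 9.23% and 7.22% given above, so the list does not stand out, and the 6 genes are given as values. MPC2, a subunit of the mitochondrial pyruvate carrier, had 13.9 and 14.7 FPKM in the controls and 17.9 and 19.7 in the KO libraries (difference 0.37, SE 0.09, adjusted p = 0.208). Its partner subunit gene MPC1 had 20.3 and 17.6, then 21.6 and 15.8 FPKM, with no separation. SLC2A8, an intracellular sugar transporter gene, had 5.71 and 5.97, then 7.73 and 8.15 FPKM, all KO values being higher (adjusted p = 0.208). EPAS1, which encodes HIF-2α, had 11.8 and 12.2, then 15.6 and 16.4 FPKM (adjusted p = 0.190), whereas HIF1A had 28.9 and 29.9 in the controls, 37.5 in KO 1 and 25.0 in KO 2.

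On the lower side, PGAM2, the muscle mutase gene, had 1.90 and 1.75 FPKM in the controls and 0.336 and 0.218 in the KO libraries. That is 18.4% and 11.9% of the control mean (difference -1.15, SE 0.15, adjusted p = 0.134 in limma), from roughly 21 and 20 fragments in the controls and 4 and 2 in the KO libraries. PGAM2 reached 1 FPKM in the controls alone, so it passed the filter through the group where it was high. Its test is therefore not independent of the filter, and its place among the 3 lower genes is description only. ARRDC4, an arrestin gene known to respond to glucose, had 3.71 and 3.29, then 1.47 and 2.43 FPKM, below both controls (adjusted p = 0.248). TXNIP, its better known relative, was listed at 0 in all 4 libraries, which may be a failed estimate, since many cell lines express it. PDPR, the regulatory subunit of pyruvate dehydrogenase phosphatase, had 10.4 and 10.8, then 8.42 and 6.26 FPKM (adjusted p = 0.245), and PDP1 and PDP2, which encode catalytic subunits, also lay below both controls. The pentose phosphate pathway is a route that branches off at glucose 6-phosphate, and its 7 genes listed had a median difference of -0.11. Of these, 2 lay above both controls (28.6%, background 26.5%), 3 below them (background 25.6%) and 0 had an unadjusted p under 0.05. In that branch TKT, the transketolase gene, had 356 and 343, then 295 and 325 FPKM, below both controls. TALDO1 had 153 and 146, then 155 and 191 FPKM, above both.

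**Figure D4:**
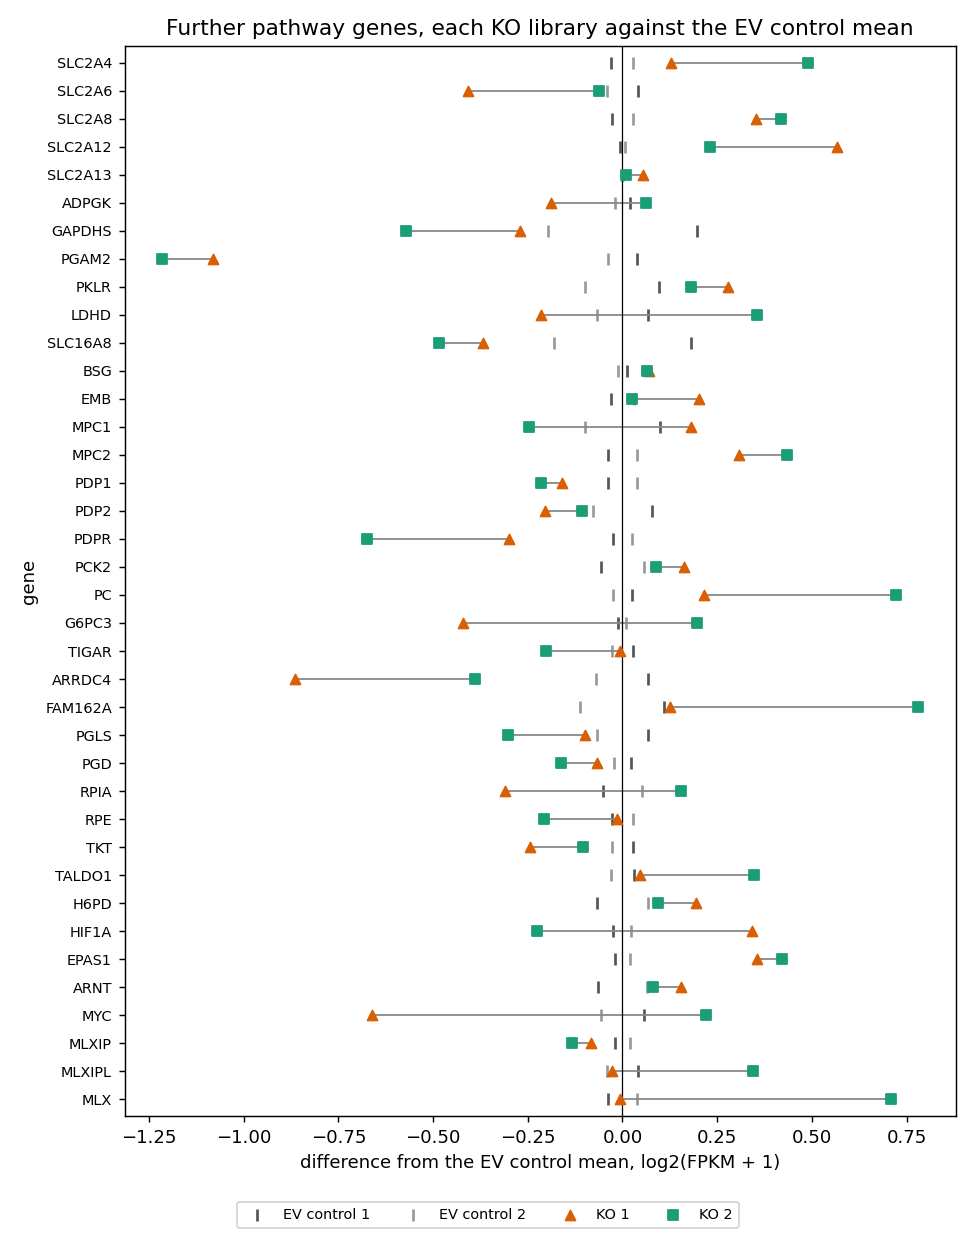
Difference of each KO library from the mean of the EV controls on the log2(FPKM + 1) scale, for the 38 tested further pathway genes. Triangles are KO 1, squares KO 2 and short bars the controls. PGAM2, which passed the filter through the controls alone, lies lowest, at -1.08 in KO 1 and -1.21 in KO 2. MPC2, SLC2A8 and EPAS1 lie above the controls in both KO libraries.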

How the data were processed

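Poly(A)-selected, stranded libraries (TruSeq kit) were made from total RNA, per the labels' protocols. The deposited values are taken as FPKM per gene symbol, the output of Cuffnorm, which the submitters' processing notes name (version 2.2.1) with TopHat2 2.0.13, Bowtie2 2.2.3, SAMtools 0.1.19 and the build hg19. The annotation, the strand setting and how libraries were scaled are not stated in the sources used here, so antisense and overlapping genes cannot be told apart.

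Values were used as deposited, as log2(FPKM + 1). The 12701 genes with at least 1 FPKM in at least 2 of 4 libraries were fitted with limma 3.58.1 in R 4.3.3. The fit had a mean-variance trend and group as the sole term, with Benjamini-Hochberg adjustment and a threshold of 0.05. A test on simulated data came first, with the spread of the EV controls in all libraries. It does not show how the fit performs at the wider spread between the KO libraries. The depth estimate used 2008 genes with a single GENCODE release 29 transcript of 1000 to 6000 nt, as the median product of FPKM and length in kilobases between 0.06 and 0.1, a preset window that bounds it. Isozyme shares are FPKM in percent of the step's sum in the same library.

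The members and lists were chosen with earlier results of these data known. All members are named. Values per library are given for those set apart in both KO libraries, on opposite sides of the controls or most abundant in a step. Further pathway genes are named at an unadjusted p under 0.05 or as partners of these, and SLC2A6, TKT and TALDO1 besides. A gene of that list is not reported here. Alternatives were a pseudocount of 0.1, no filter on low values or one at 5 FPKM, quantile normalization, median-of-ratios scaling, no mean-variance trend, a replicate block, leaving out 133 small RNA genes and leaving out each library.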

Additional observations from a re-analysis of the deposited data

How the results depend on the processing

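Under the 8 alternatives that keep all 4 libraries, no glycolysis gene passed, and of 229 differences of single glycolysis genes 4 changed sign, all near 0: GAPDH (-0.00033) and ENO1 (-0.0045) with median-of-ratios scaling, and PGAM1 (-0.0396) and ENO1 (-0.072) with quantile normalization, where GAPDH was 0 to within rounding error. Scaling moved the median of all genes by -0.004 and -0.015. Quantile normalization moved the differences of each of the 12 glycolysis genes that averaged 100 FPKM or more downward. ALDOA went from 0.21 to 0.12, LDHA from 0.29 to 0.17, TPI1 from 0.17 to 0.089, PGK1 from 0.18 to 0.11 and PKM from -0.06 to -0.14. The sizes of these differences thus depend on the normalization. Counts over all tested genes, 7 higher and 7 lower, became 97 and 128 with no filter on low values, where 1 glycolysis gene (SLC2A3) was lower at an unadjusted p under 0.05. The lower count was 4 with quantile normalization, the higher count 3 in limma without the trend and 4 with a replicate block, and both were 0 without small RNA genes. The replicate block left the glycolysis counts at 0. Deviations of same-numbered libraries were not correlated (r = -0.005 across genes). A correlation over all genes cannot show whether such libraries shared a culture or preparation, which the labels do not say.

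Leaving out each library gave 6 to 1381 higher and 5 to 881 lower genes over all tested, 0 to 12 higher and 0 to 2 lower glycolysis genes, and 3 to 17 higher and 0 to 3 lower ones at an unadjusted p under 0.05. The 3 came without EV control replicate 2. For further pathway genes the ranges were 0 to 8 and 0 to 6. The median of the glycolysis genes ranged from 0.0425 to 0.208, the latter without KO replicate 1, and C14orf159 from -2.30 to -0.55. Differences that changed sign ranged from -0.069 to 0.0086 (PFKFB3), -0.056 to 0.064 (GAPDH), -0.15 to 0.15 (ENO1), -0.39 to 0.16 (GPI), -0.085 to 0.19 (PFKFB2), -0.16 to 0.064 (LDHB), -0.16 to 0.25 (HK2), -0.11 to 0.20 (PFKL), -0.086 to 0.22 (PFKM), -0.0032 to 0.26 (PFKP) and -0.13 to 0.15 (PGAM1). A KO library left alone is assumed to vary like the controls, and beyond that the cause was not tested. Depth limits SLC2A3 and PGAM2, whose differences rest on few fragments.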
